A study of Mus musculus with 6 samples.

Results

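The genes described here build the dynein arms of motile cilia, the motors that make a cilium beat, together with the factors that assemble and anchor them. A list of 33 mouse genes was looked up by symbol, and 33 of 33 were found among the 21938 genes of the deposited table, each with a mean of at least 1 CPM. They comprise 7 genes of the outer arm, 9 of the inner arm, 4 of the docking complex, 5 of the molecular ruler and the nexin-dynein regulatory complex, and 8 preassembly factors.

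The libraries hold RNA of E14.0 mouse soft palate, the rear part of the palate that comes to contain muscle. The mutants carried Osr2-Cre and floxed alleles of β-catenin (Osr2-Cre;b-cateninfl/fl, replicates 5, 6 and 7). The controls carried the floxed alleles without Cre (b-cateninfl/fl, replicates 1, 2 and 3), although the labels' genotype field calls them wild type. Osr2-Cre is driven from the Osr2 locus, which is active in palatal mesenchyme, so the tissue also held cells without Cre, and epithelium is not the layer it is known for. Whether a library is 1 embryo or a pool is not given, so a p-value speaks for the spread among these 6 libraries. Values are CPM, counts scaled to a fixed library total, and the step between low values put the depth at 10014432 to 15078008 reads. Ctnnb1, the β-catenin gene, measured 585, 633 and 582 CPM in the mutants, against 699, 784 and 671 CPM in the controls, without overlap, but did not pass the test (log2 change -0.26, adjusted p = 0.183 in limma), and reads from exons that Cre leaves in place are still part of its value. Osr2, the locus that carries the Cre, fell to 16.1 ± 3.22 CPM in mutants, against 46.9 ± 11.2 CPM in controls (SD, n = 3 each). Limma put its log2 change at -1.47 ± 0.20 (SE) (adjusted p = 0.0285), with an adjusted p of 0.0925 without control replicate 3.

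In a motile cilium, dynein arms sit in rows along the outer doublet microtubules. Outer arms give the beat its power and inner arms shape the waveform; the docking complex seats the outer arms, a ruler of Ccdc39 and Ccdc40 sets the spacing of the inner arms, and the nexin-dynein regulatory complex links neighbouring doublets. The arms are put together in the cytoplasm by preassembly factors before they enter the cilium. Primary cilia, which most mesenchymal cells carry, have no dynein arms, whereas the nasal side of the palate comes to be lined by airway-type epithelium with multiciliated cells. In humans, loss of many of these genes causes primary ciliary dyskinesia.

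All 33 genes had higher mean values in mutants than in controls, most clearly the heavy chains of both arms and the ruler pair, and least the preassembly factors. None of them passed the test over the whole table. In limma on log2(CPM + 1), with Benjamini-Hochberg adjustment over 21938 genes, 0 of 33 had an adjusted p below 0.05, where 0.479% of all genes did in either direction and 0.196% in the higher one. At an unadjusted p below 0.05, 27 of 33 were higher in mutants and 0 lower, against 13.4% of all genes higher and 8.07% lower. Every mutant library lay above every control library for 23 of 33, where 17.1% of all genes showed that order. The median log2 change was 0.97 over the 33 genes and 0.043 over all genes, and all 33 changes had a positive sign, from 0.062 for Dnaaf5 to 1.84 for Dnah10. The adjusted p ran from 0.0570 for Dnah2 to 0.873 for Dnaaf5, and 9 genes lay below 0.1, a level that 2.84% of all genes reached in the higher direction. In a bulk sample, more cells of a type and more RNA per cell cannot be told apart.

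**Figure D1:**
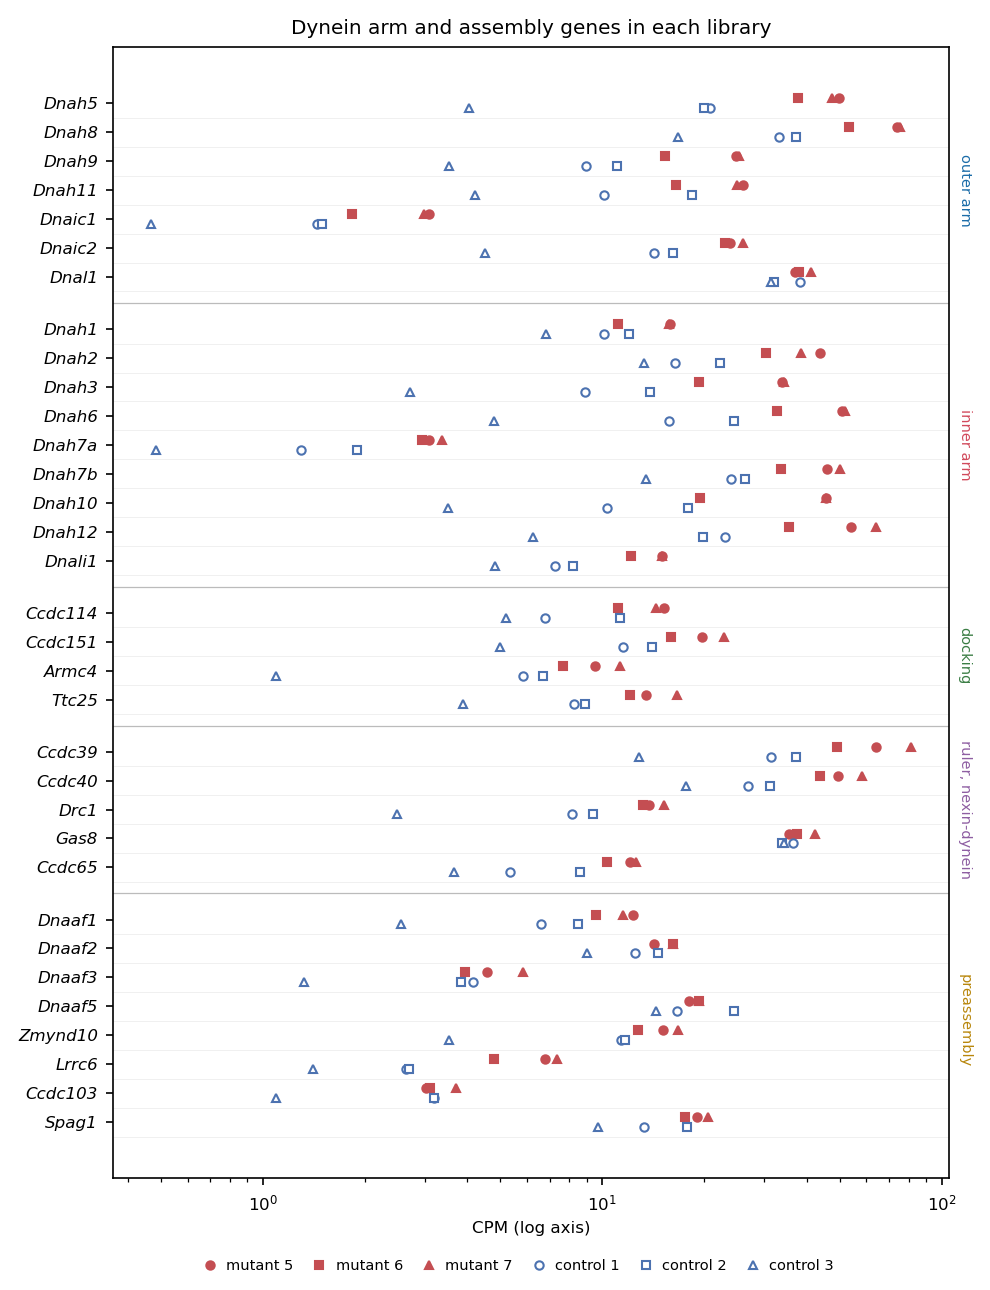
CPM of each of the 33 genes in every library, on a log axis, with mutants as filled red symbols above and controls as open blue symbols below in each row. Control replicate 3 (open triangles) is the lowest library for 32 of 33 genes, while Dnal1, Gas8 and Dnaaf5 show mutants and controls close together.

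The libraries of a group differed from each other in the same way across most of these genes. Control replicate 3 held the lowest value of all 6 libraries for 32 of 33 genes, the exception being Gas8, which was lowest in control replicate 2. Its values were at a median of 0.373 times the mean of control replicates 1 and 2, where the same ratio over all genes had a median of 0.971. Mutant replicate 6 was the lowest mutant for 28 genes, and control replicate 2 the highest control for 27. The coefficient of variation had a median of 16.4% among mutants and 47.0% among controls for the 33 genes, beside 13.4% and 17.4% in mutants and controls over all genes. Without control replicate 3, no gene of the table passed at an adjusted p below 0.05, 23 of 33 genes were higher at an unadjusted p below 0.05 by limma, against 9.9% of all genes, and the median log2 change was 0.64. Without control replicate 2, 6 of 33 genes passed at an adjusted p below 0.05, against 1.16% of all genes. Those 6 were Dnah2, Dnah3, Dnali1, Ccdc114, Ccdc40 and Ccdc65, with adjusted p of 0.0286, 0.0492, 0.0447, 0.0460, 0.0390 and 0.0384.

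Of the 4 outer arm heavy chains, the motor subunits, 3 had every mutant above every control. Dnah5, a heavy chain whose loss immobilises airway cilia (chromosome 15, 28203752 to 28472052, GRCm38), had 49.9, 37.7 and 47.5 CPM in the mutants, against 20.8, 19.96 and 4.05 CPM in the controls. All mutants lay above all controls, and control replicate 3 was far below the other controls. The means were 45.04 ± 6.47 CPM in mutants and 14.9 ± 9.44 CPM in controls (SD, n = 3 each), and limma gave a log2 change of 1.79 ± 0.49 (SE) at an adjusted p of 0.104. Dnah9, which pairs with it in distal outer arms, had 24.8, 15.3 and 25.3 CPM in the mutants, against 8.94, 11.1 and 3.53 CPM in the controls (log2 change 1.45 ± 0.35 (SE), adjusted p = 0.0854). Dnah8, a heavy chain best known from sperm flagella (chromosome 17, 30624354 to 30877365, GRCm38), had 73.9, 53.4 and 75.4 CPM in the mutants, against 33.2, 37.2 and 16.7 CPM in the controls, the highest CPM of the outer arm in each mutant. The change on the log2 scale was 1.25 ± 0.27 (SE) (adjusted p = 0.0710), and its groups did not overlap either. Dnah11, of proximal outer arms, measured 25.9, 16.5 and 24.997 CPM in the mutants, against 10.1, 18.3 and 4.22 CPM in the controls, so that mutant replicate 6 lay below control replicate 2 (adjusted p = 0.164). Without control replicate 3 the log2 changes were 1.10 for Dnah5 and 0.65 for Dnah11, against 1.79 and 1.15 with it. In the mouse, Dnah5 and Dnah11 are also known for setting the left-right asymmetry of the body.

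The smaller outer arm subunits split. Dnaic2, an intermediate chain that carries the heavy chains (chromosome 11, 114727408 to 114757889, GRCm38), had 23.7, 23.0 and 25.9 CPM in the mutants, against 14.2, 16.2 and 4.52 CPM in the controls. Its mutants lay close together and above all controls (log2 change 1.16 ± 0.37 (SE), adjusted p = 0.135), but the change was 0.64 without control replicate 3. Dnaic1, the partner intermediate chain, was near the low end of the list at 3.10, 1.82 and 2.98 CPM in the mutants, against 1.44, 1.497 and 0.467 CPM in the controls. The lowest of these values stands for about 6 reads in control replicate 3, and the log2 change was 0.79 ± 0.27 (SE) (adjusted p = 0.14996). Dnal1, the leucine-rich light chain of the outer arm, gave 36.9, 38.1 and 41.1 CPM in the mutants, against 38.3, 32.0 and 31.4 CPM in the controls, and its groups overlapped (log2 change 0.19 ± 0.11 (SE), adjusted p = 0.363, 95% interval -0.063 to 0.44).

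The inner arm held the 2 genes with the largest changes of the list, Dnah10 and Dnah3, although its median change was below that of the outer arm. Dnah10, a heavy chain of the double-headed inner arm (chromosome 5, 124725085 to 124834308, GRCm38), gave 45.5, 19.4 and 45.7 CPM in the mutants, against 10.3, 17.8 and 3.50 CPM in the controls. Mutant replicate 6 came close to control replicate 2, while mutant replicates 5 and 7 stood far above it. Its log2 change of 1.84 ± 0.50 (SE) was the highest of the 33 genes (adjusted p = 0.104), and it was 1.28 without control replicate 3. Dnah2, the other heavy chain of that arm (chromosome 11, 69420809 to 69549110, GRCm38), had 43.9, 30.4 and 38.5 CPM in the mutants, against 16.4, 22.3 and 13.3 CPM in the controls. The groups did not overlap, and its means were 37.6 ± 6.84 CPM in mutants and 17.3 ± 4.54 CPM in controls (SD, n = 3 each). It had the smallest p of the list (log2 change 1.09 ± 0.20 (SE), adjusted p = 0.0570).

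In the single-headed inner arm dyneins, control replicate 3 was again the lowest library and mutant replicate 6 the lowest mutant. Dnah3 (chromosome 7, 119922671 to 120095280, GRCm38) had 33.8, 19.2 and 34.4 CPM in the mutants, against 8.90, 13.8 and 2.72 CPM in the controls (log2 change 1.84 ± 0.45 (SE), adjusted p = 0.0872). Dnah6 (chromosome 6, 73017606 to 73221651, GRCm38) had 50.9, 32.8 and 51.8 CPM in the mutants, against 15.7, 24.4 and 4.81 CPM in the controls (log2 change 1.75 ± 0.46 (SE), adjusted p = 0.101). In neither gene did the groups overlap, and without control replicate 3 the change of Dnah6 was 1.14. Dnah12 measured 54.2, 35.6 and 64.1 CPM in the mutants, against 23.0, 19.8 and 6.23 CPM in the controls (log2 change 1.73 ± 0.42 (SE), adjusted p = 0.0826), again without overlap. Dnah1, whose loss impairs sperm flagella, was the heavy chain with the smallest difference at 15.8, 11.1 and 15.7 CPM in the mutants, against 10.1, 11.9 and 6.83 CPM in the controls (log2 change 0.53 ± 0.22 (SE), adjusted p = 0.211), and its groups overlapped. Its log2 change was 0.32 without control replicate 3. Dnali1, a light chain of the inner arm, had 15.0, 12.2 and 15.0 CPM in the mutants, against 7.28, 8.18 and 4.83 CPM in the controls (log2 change 0.97 ± 0.20 (SE), adjusted p = 0.0671), without overlap.

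Dnah7a and Dnah7b, heavy chains of a single-headed inner arm, are close copies on chromosome 1 together with Dnah7c, so their separate values are uncertain. Of the 50-base words in Dnah7a transcripts, 30.6% also occur in Dnah7b, and 38.5% of those of Dnah7b occur in Dnah7c. The longest coding stretch that all 3 copies share is 217 bases. The lines below give 120 bases of coding sequence across the end of that stretch, from GENCODE vM21 transcripts and read 5′ to 3′, to show how little separates the copies. Capitals mark the 2 positions at which the copies are not all alike.
Dnah7a: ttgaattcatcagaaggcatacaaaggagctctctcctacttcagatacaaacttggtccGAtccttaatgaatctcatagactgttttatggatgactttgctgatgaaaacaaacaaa
Dnah7b: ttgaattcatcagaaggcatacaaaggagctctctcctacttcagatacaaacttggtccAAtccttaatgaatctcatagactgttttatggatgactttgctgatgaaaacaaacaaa
Dnah7c: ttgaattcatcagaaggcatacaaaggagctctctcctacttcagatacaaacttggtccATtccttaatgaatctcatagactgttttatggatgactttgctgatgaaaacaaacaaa
A read inside the shared part could come from any of the copies, and the sources used here do not say how such reads were placed. Dnah7b had 46.0, 33.6 and 50.1 CPM in the mutants, against 23.9, 26.3 and 13.5 CPM in the controls (log2 change 1.03 ± 0.24 (SE), adjusted p = 0.0804). Dnah7a was the lowest heavy chain at 3.08, 2.95 and 3.36 CPM in the mutants, against 1.29, 1.90 and 0.486 CPM in the controls (log2 change 0.94 ± 0.26 (SE), adjusted p = 0.104), its lowest value resting on about 6 reads. Summed over the 3 copies, which does not depend on how reads were shared out among them but would miss reads that were discarded, the level was 60.2, 42.2 and 63.2 CPM in the mutants, against 30.6, 31.6 and 14.9 CPM in the controls. All 3 mutant sums lay above all 3 control sums.

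Genes of the docking complex measured moderately higher values in mutants. Ccdc151, a coiled-coil subunit (chromosome 9, 21989871 to 22002634, GRCm38), had 19.7, 15.97 and 22.8 CPM in the mutants, against 11.5, 13.97 and 4.98 CPM in the controls (log2 change 0.97 ± 0.31 (SE), adjusted p = 0.137). Ttc25, which is needed to bring the complex to the axoneme, had 13.4, 12.1 and 16.6 CPM in the mutants, against 8.24, 8.88 and 3.90 CPM in the controls (log2 change 0.96 ± 0.27 (SE), adjusted p = 0.107). Both genes had every mutant above every control, and without control replicate 3 the change of Ccdc151 was 0.57. Armc4, an armadillo-repeat subunit, measured 9.53, 7.68 and 11.3 CPM in the mutants, against 5.84, 6.69 and 1.09 CPM in the controls, and control replicate 3 reached only 0.174 times the mean of the other controls, the lowest such ratio of the list. Its log2 change of 1.12 ± 0.44 (SE) was 0.52 without that library. Ccdc114, the other coiled-coil subunit, had 15.2, 11.1 and 14.4 CPM in the mutants, against 6.80, 11.3 and 5.22 CPM in the controls, where mutant replicate 6 lay within the range of the controls (log2 change 0.78 ± 0.25 (SE), adjusted p = 0.135).

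Both genes of the ruler had every mutant above every control. Ccdc39 (chromosome 3, 33812362 to 33844310, GRCm38) had 63.8, 49.1 and 81.4 CPM in the mutants, against 31.5, 37.3 and 12.8 CPM in the controls, with means of 64.8 ± 16.1 CPM in mutants and 27.2 ± 12.8 CPM in controls (SD, n = 3 each). The log2 change of Ccdc39 was 1.32 ± 0.35 (SE), at an adjusted p of 0.101, and it was 0.87 without control replicate 3. Ccdc40 (chromosome 11, 119228572 to 119265238, GRCm38) had 49.4, 43.7 and 58.1 CPM in the mutants, against 26.9, 31.1 and 17.7 CPM in the controls (log2 change 1.00 ± 0.20 (SE), adjusted p = 0.0627), second to Dnah2 alone among the 33 genes in its p. Ccdc39 had the highest level per length of the list in mutants, 18.0 CPM per kb of its longest coding transcript, against 7.54 in controls. For comparison on that scale, Ccdc40 lay at 10.1 in mutants and 5.07 in controls, and Gas8 at 11.1 in mutants and 10.04 in controls. Heavy chains were lower per length, from 0.256 for Dnah7a to 4.27 for Dnah12 in mutants and from 0.1001 for Dnah7a to 1.74 for Dnah8 in controls. This order rests on the longest coding transcript. All exons of Ccdc39 together cover 7443 bases, and exons of Ttc14 on the other strand overlap 16.9% of them.

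Within the nexin-dynein regulatory complex, Gas8 stood apart from its partners. Drc1, a core subunit, had 13.7, 13.2 and 15.2 CPM in the mutants, against 8.16, 9.38 and 2.49 CPM in the controls (log2 change 1.12 ± 0.36 (SE), adjusted p = 0.139). Ccdc65, another core subunit, had 12.1, 10.3 and 12.6 CPM in the mutants, against 5.36, 8.58 and 3.66 CPM in the controls (log2 change 0.94 ± 0.25 (SE), adjusted p = 0.102). Neither gene's groups overlapped, and the change of Drc1 was 0.62 without control replicate 3. Gas8, a subunit that is also expressed in cells without motile cilia, had 35.4, 37.5 and 42.2 CPM in the mutants, against 36.4, 33.8 and 34.3 CPM in the controls, and mutant replicate 5 lay below control replicate 1. The log2 change of Gas8 was 0.13 ± 0.10 (SE) (adjusted p = 0.489), with a 95% interval of -0.10 to 0.37. The interval of Drc1, 0.29 to 1.94, overlapped that of Gas8, and the interval of Ccdc65 was 0.37 to 1.52. The difference between these genes was not tested.

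Preassembly factors had the smallest differences, with a median log2 change of 0.53 over 8 genes, against 1.16 for the outer arm, 1.09 for the inner arm, 0.97 for the docking complex and 1.00 for the ruler and nexin-dynein genes. Lrrc6, a leucine-rich factor that works with Zmynd10 (chromosome 15, 66379858 to 66500910, GRCm38), had 6.76, 4.79 and 7.36 CPM in the mutants, against 2.64, 2.69 and 1.40 CPM in the controls, the clearest difference among them (log2 change 1.18 ± 0.24 (SE), adjusted p = 0.0671). Dnaaf1, a leucine-rich factor of the same process, had 12.4, 9.60 and 11.5 CPM in the mutants, against 6.61, 8.49 and 2.55 CPM in the controls (log2 change 0.93 ± 0.33 (SE), adjusted p = 0.162), or 0.51 on the log2 scale without control replicate 3. Zmynd10, a zinc-finger assembly factor, had 15.1, 12.8 and 16.7 CPM in the mutants, against 11.4, 11.6 and 3.54 CPM in the controls, and its log2 change of 0.82 ± 0.36 (SE) was 0.34 without control replicate 3. These 3 were the factors whose groups did not overlap.

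The other preassembly factors overlapped between the groups. Dnaaf2, a cochaperone of the assembly step, had 14.2, 16.1 and 16.2 CPM in the mutants, against 12.5, 14.6 and 9.01 CPM in the controls (log2 change 0.36 ± 0.18 (SE), adjusted p = 0.279). Dnaaf5, a HEAT-repeat protein, had 18.0, 19.3 and 19.3 CPM in the mutants, against 16.6, 24.5 and 14.4 CPM in the controls (log2 change 0.062 ± 0.18 (SE), adjusted p = 0.873), and its change was -0.09 without control replicate 3, the only reversal of sign among the 33 genes. Both genes had a control above at least 1 mutant. Ccdc103, which helps to hold arms on the microtubule, had 3.01, 3.12 and 3.71 CPM in the mutants, against 3.20, 3.19 and 1.09 CPM in the controls (adjusted p = 0.505), with control replicates 1 and 2 within the range of the mutants. Dnaaf3, another factor of cytoplasmic assembly, gave 4.58, 3.93 and 5.83 CPM in the mutants, against 4.16, 3.82 and 1.32 CPM in the controls (adjusted p = 0.333), and control replicate 3 was far below every other library. Without that library the log2 changes were 0.18 for Dnaaf2, 0.20 for Dnaaf3, 0.025 for Ccdc103 and 0.29 for Spag1, against 0.36, 0.57, 0.36 and 0.49 with it. Spag1, a scaffold of the assembly chaperones, had 19.1, 17.6 and 20.47 CPM in the mutants, against 13.3, 17.8 and 9.73 CPM in the controls (log2 change 0.49 ± 0.20 (SE), adjusted p = 0.200), with mutant replicate 6 just below control replicate 2. Dnaaf5 and Spag1 had their highest control in replicate 2, like most of the 33 genes. Reads from opposite strands cannot be told apart, since the use of strand in counting is not given. Exons on the other strand cover 32.6% of the exonic bases of Dnaaf2 and 20.7% of those of Dnaaf1, and 7 of the 33 genes have more than 10% covered by 1 other gene.

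**Figure D2:**
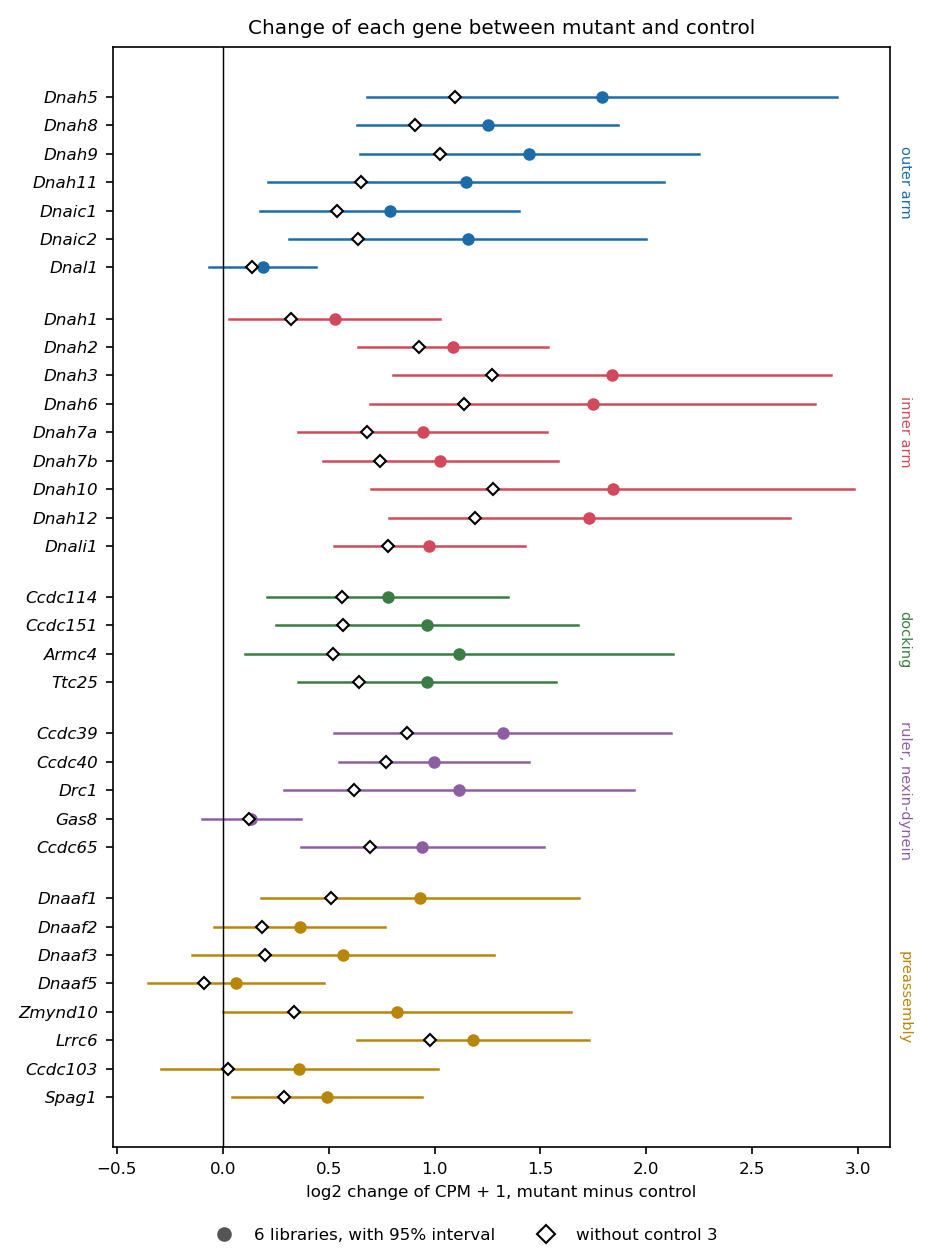
Log2 change (CPM + 1, mutant minus control) of each gene with its 95% interval from limma, not adjusted for the number of genes, coloured by role, with diamonds for the change without control replicate 3. Filled points run from 0.062 to 1.84, and the diamonds lie to the left of them for all 33 genes, with Dnaaf5 at -0.09.

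The larger differences belonged mostly to the longest genes. The 12 heavy chains had a median log2 change of 1.35 and the other 21 genes one of 0.93; 10 of 12 heavy chains and 15 of all 33 genes lay above 1, where 1.08% of all genes did. Heavy chain transcripts measure 12.01 to 16.7 kb (longest coding transcript, GENCODE vM21), against 1.76 to 5.73 kb in the other members. Over all coding genes with a mean of at least 1 CPM the change also moved with length, from a median of -0.082 for 3225 genes under 2 kb to 0.16 for 190 genes of 12 kb or more, or 0.14 when the 12 heavy chains are left out of the longest class. The part of this trend in the heavy chain values was not tested. Shorter members stood above their own length class as well, with a median of 0.95 for the 16 of 2 to 4 kb, where the class had -0.015.

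**Figure D3:**
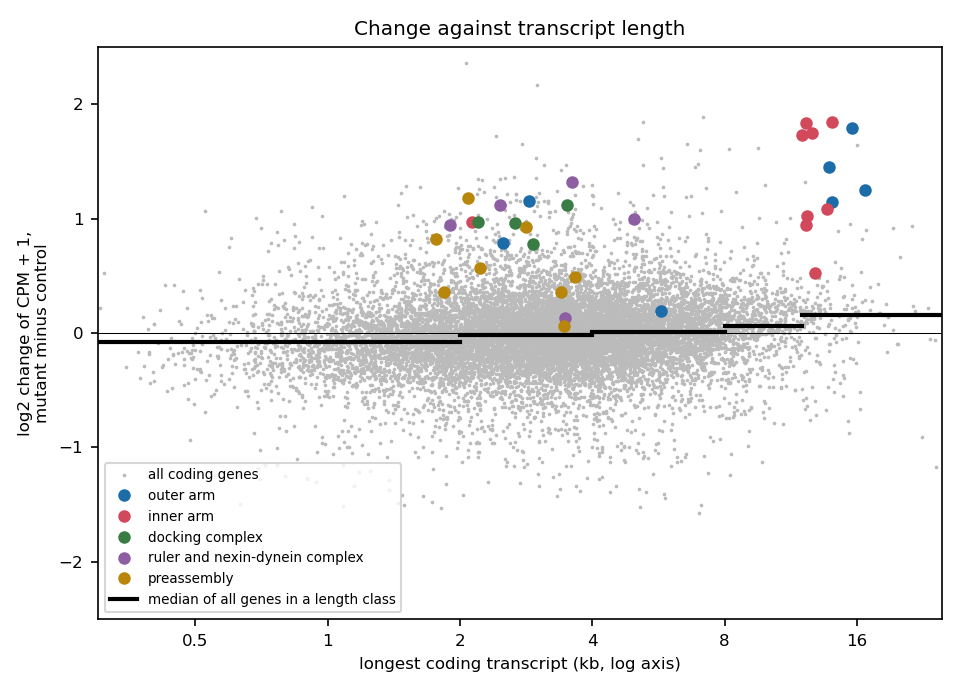
Log2 change (CPM + 1, mutant minus control) against the length of the longest coding transcript for 14175 coding genes in grey, with the 33 dynein genes coloured by role and black bars at the median of each length class. The bars run from -0.082 to 0.16, the heavy chains lie between 0.53 and 1.84 at the right, and 11 grey points fall outside the axes.

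Summed levels showed the same order of libraries in all roles. The 33 genes together held 872, 671 and 937 CPM in the mutants, against 455, 530.3 and 250.2 CPM in the controls. Every role's sum was higher in each mutant than in each control, with ratios of the group means from 1.41 for preassembly to 2.58 for the inner arm, and from 1.19 to 2.09 when control replicate 3 is left out. The preassembly sums nearly met, at 87.2 CPM in mutant replicate 6 and 86.7 CPM in control replicate 2.

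**Figure D4:**
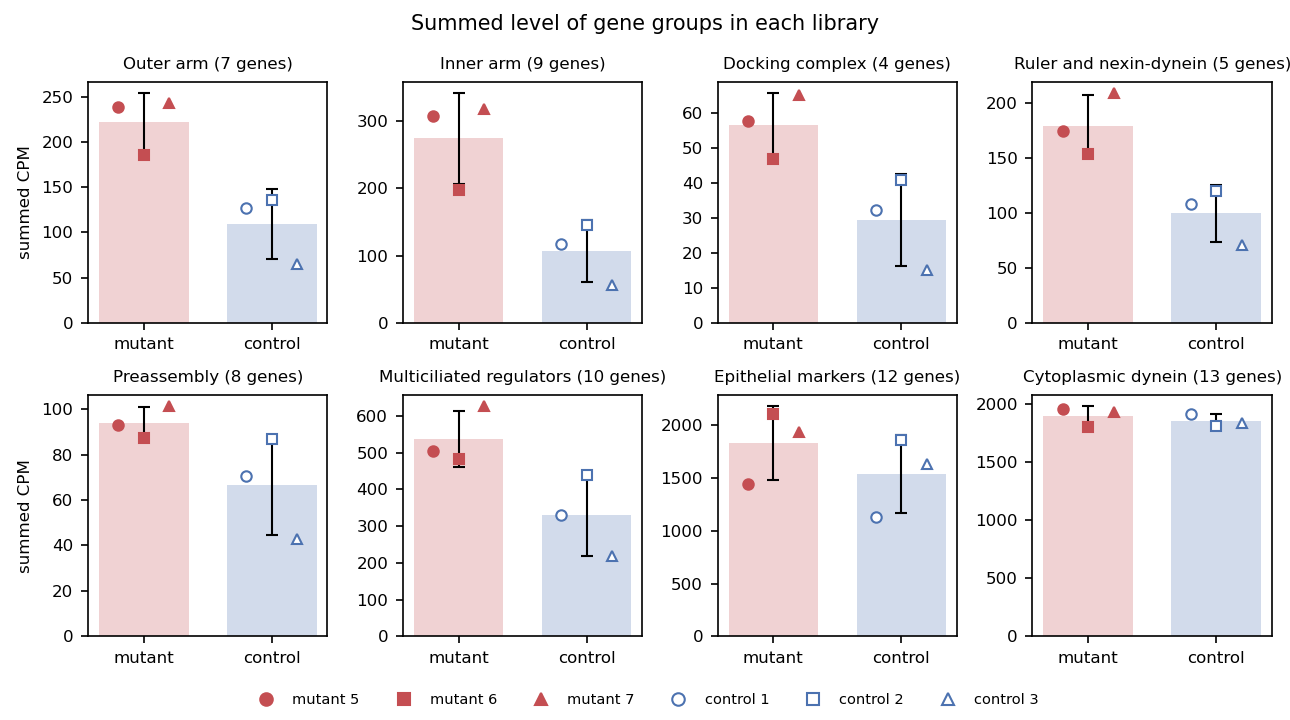
Summed CPM per library for the 5 roles and 3 other gene lists, with bars at the group mean, error bars of 1 SD (n = 3 each) and a symbol per library. In the inner arm panel mutants sit between 197 and 319 CPM and controls between 56.2 and 146 CPM, while mutants and controls overlap for epithelial markers and cytoplasmic dynein.

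Other genes of dynein arm biology and of the axoneme were mostly higher in mutants as well. For arms, their assembly and the regulatory complex, 35 further symbols were looked up, some of them older names of genes also listed, and 30 were measured. Of these 30 genes, 0 passed in limma at an adjusted p below 0.05. At an unadjusted p below 0.05, 19 were higher by limma and 0 lower, against 13.4% of all genes higher and 8.07% lower. The median log2 change of the 30 genes was 0.74, and 27 had a positive sign. The smallest p belonged to Iqcg, a subunit of the nexin-dynein complex (42.7 CPM in mutants and 21.5 CPM in controls, adjusted p = 0.0578), Pih1d2, a relative of the assembly cochaperones (10.2 CPM in mutants and 5.20 CPM in controls, adjusted p = 0.0621), and Mns1, which lies inside the doublet (89.8 CPM in mutants and 55.6 CPM in controls, adjusted p = 0.0621). In the central pair and radial spokes, the structures that regulate the arms, 0 of 15 genes passed and the median log2 change was 0.94. At an unadjusted p below 0.05, 11 of the 15 were higher by limma, against 13.4% of all genes. Cfap46 (15.6 CPM in mutants and 4.38 CPM in controls, adjusted p = 0.0561), Spag17 (32.2 CPM in mutants and 15.0 CPM in controls, adjusted p = 0.0572) and Spag6l (15.1 CPM in mutants and 6.23 CPM in controls, adjusted p = 0.0621), all of the central pair, had the smallest p there.

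Dyneins that do not belong to the axoneme gave another picture. Of 13 subunits of cytoplasmic dynein, the motor of minus-end transport in all cells, and of the dynein of intraflagellar transport, 1 rose at an adjusted p below 0.05 in limma. At an unadjusted p below 0.05, 2 were higher by limma, that gene among them, and 2 lower. Over all genes 13.4% were higher and 8.07% lower at that level. The median log2 change of the 13 genes was 0.0011, and 7 of them had a positive sign. Subunits of the transport dynein ran from 0.0011 to 0.70, and the others from -0.65 to 0.16. Every mutant lay above every control for 4 of the 13, where 17.1% of all genes showed that order, and below for 1. The gene that rose was Wdr60, an intermediate chain of the transport dynein, with 68.7, 77.6 and 92.5 CPM in the mutants, against 47.99, 48.9 and 47.4 CPM in the controls (log2 change 0.70 ± 0.12 (SE), adjusted p = 0.0462). With 1 library left out its log2 change was 0.592 to 0.804, and it passed without control replicate 2 (adjusted p = 0.0473) and in none of the other 5 such fits, with an adjusted p of 0.113 without control replicate 3. Dync2h1, the heavy chain of the same motor, had 177, 167 and 198 CPM in the mutants, against 136, 126 and 92.9 CPM in the controls (adjusted p = 0.0773). Dync1i1, an intermediate chain of cytoplasmic dynein found mainly in neurons, was lower at 5.30 CPM in mutants and 9.01 CPM in controls (adjusted p = 0.177). The 13 genes overlapped between the groups when summed. Their summed level was 1953, 1799 and 1929.8 CPM in the mutants, against 1915, 1805 and 1832 CPM in the controls.

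Genes of the multiciliated state were set beside the dynein genes. Some of them are known to switch such genes on, and others act in the making of many centrioles. None of 10 passed at an adjusted p below 0.05, and the median log2 change was 0.81. At an unadjusted p below 0.05, 7 of 10 were higher by limma, against 13.4% of all genes. Summed, they measured 503, 484 and 626 CPM in the mutants, against 329.8, 439.7 and 219 CPM in the controls, and control replicate 3 was at 0.569 times the mean of the other controls, beside 0.508 times for the summed dynein genes. How far these 10 genes and the dynein genes move together was not tested. Foxj1, the main activator of motile cilium genes, had 75.5, 79.3 and 96.2 CPM in the mutants, against 64.2, 104 and 32.5 CPM in the controls, so that control replicate 2 held the highest value of all libraries (adjusted p = 0.472). Rfx2 and Rfx3 bind the X-box of ciliary promoters. Rfx2 gave 15.7, 14.5 and 16.04 CPM in the mutants, against 10.3, 16.8 and 9.27 CPM in the controls, with overlap (adjusted p = 0.340). Rfx3 gave 74.5, 78.2 and 77.3 CPM in the mutants, against 63.7, 58.8 and 55.2 CPM in the controls, without overlap (adjusted p = 0.0833). Mcidas, an early inducer of the multiciliated fate, had 26.2, 22.0 and 33.1 CPM in the mutants, against 16.1, 24.5 and 8.10 CPM in the controls. Ccno, which acts in the making of many centrioles, had 31.2, 29.1 and 36.8 CPM in the mutants, against 19.2, 35.4 and 8.18 CPM in the controls. In both genes control replicate 2 lay above mutant replicate 6 and control replicate 3 was the lowest library. Deup1, a scaffold of that centriole amplification, had 74.2, 60.1 and 84.3 CPM in the mutants, against 40.1, 40.6 and 17.1 CPM in the controls (adjusted p = 0.0854). Myb, a transcription factor of cells on the way to many cilia, had 148, 141 and 197 CPM in the mutants, against 87.6, 106 and 62.2 CPM in the controls (adjusted p = 0.0687). Neither gene's groups overlapped.

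The summed dynein level was also expressed per unit of single genes, as a ratio of CPM values and without a test. Relative to Foxj1 it was 11.6, 8.46 and 9.74 in the mutants, against 7.08, 5.08 and 7.71 in the controls, with all mutants above all controls. Relative to Mcidas the groups overlapped, at 33.3, 30.4 and 28.3 in the mutants, against 28.3, 21.7 and 30.9 in the controls, and relative to Deup1 they overlapped as well, at 11.7, 11.2 and 11.1 in the mutants, against 11.4, 13.1 and 14.7 in the controls. Per unit of Epcam, a general epithelial marker, the ratio was 6.32, 3.38 and 4.48 in the mutants, against 3.56, 2.88 and 1.66 in the controls, so that mutant replicate 6 lay below control replicate 1. Of 8 such ratios computed, the other 4 used Rfx2, with 55.5, 46.2 and 58.4 in the mutants, against 44.1, 31.6 and 27.0 in the controls, and Ccno, Rfx3 and Cdh1, for which mutants and controls overlapped. Thus all mutants lay above all controls relative to Foxj1 and Rfx2, and not relative to the other 6 genes.

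Markers of the cell types in the tissue were summed for the same libraries. Of 12 epithelial markers, such as Epcam, Krt5 and Trp63, none passed and 2 were higher by limma at an unadjusted p below 0.05, the median log2 change was 0.28, and the sums were 1439, 2107 and 1935 CPM in the mutants, against 1134, 1856 and 1627 CPM in the controls. Control replicate 3, lowest in the dynein genes, had an epithelial sum 1.09 times the mean of the other controls. Single markers differed there: Krt14 had 466 CPM, against 200 and 399 CPM in control replicates 1 and 2, and Cldn7 12.8 CPM, against 22.8 and 37.6 CPM. Of the 12 respiratory and nasal epithelial markers, which include Foxj1 and Dynlrb2, 10 were measured, 0 passed, 3 were higher by limma at an unadjusted p below 0.05, and the sums were 475, 477 and 815 CPM in the mutants, against 364, 499.7 and 242 CPM in the controls. By this respiratory and nasal sum, control replicate 3 was at 0.561 times the mean of the other controls. At that unadjusted level 13.4% of all genes were higher. Skeletal muscle markers (10 genes) summed to 4483, 5575 and 4595 CPM in the mutants, against 14242, 6761 and 10151 CPM in the controls. All 10 had a negative log2 change, and 6 of them passed in limma at an adjusted p below 0.05, where 0.479% of all genes did in either direction. The median log2 change of the 10 muscle markers was -1.33, and -1.29 without control replicate 3, where no gene of the table passed. Red cell genes (6 genes) summed to 369.7, 638 and 582 CPM in the mutants, against 775, 1366 and 2192 CPM in the controls, with control replicate 3 the highest of all libraries. Markers of palatal mesenchyme (12 genes) were present in every library, but all 12 had a negative log2 change, with a median of -0.47. At an unadjusted p below 0.05, 6 of 12 were lower by limma, against 8.07% of all genes. Of these, 1 also passed at an adjusted p below 0.05 and fell, Osr2. The mesenchymal sums were 5062 to 7110.4 CPM in mutants and 6026 to 8752 CPM in controls. Brain, pituitary and choroid plexus markers were low, with 7 of 10 measured and sums of 20.6 to 55.6 CPM in mutants and 15.0 to 31.0 CPM in controls. Ttr, which choroid plexus makes in large amounts, reached 0.941 CPM in mutants and 1.33 CPM in controls. Endothelial markers (5 genes) summed to 197 to 279 CPM in mutants and 167 to 274 CPM in controls. No measured marker was at 0 in every library. The part of these cell type differences in the dynein values was not tested.

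The authors' filtered table lists 23 of the 33 genes. It holds 2432 of 21938 genes (11.1%), each with group means at least 1.5 times apart, and 1810 of them were higher in mutants. In limma, 99.5% of the listed genes had an unadjusted p below 0.05, and the highest was 0.0739. The list stems from the same libraries and the same contrast, so it is not independent of the values above. The 10 genes left out of it were Dnal1, Dnah1, Armc4, Gas8, Dnaaf2, Dnaaf3, Dnaaf5, Zmynd10, Ccdc103 and Spag1. Among them, Armc4, Zmynd10 and Dnaaf3 were left out although their group means were 2.09, 1.68 and 1.54 times apart.

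Promoters were searched for letters bound by the factors named above, because most of these genes share the order of libraries. RefSeq windows from 250 bases before to 50 bases after the start site (GRCm38.p6) were found for 27 of 33 genes and searched on both strands. The X-box, written GTTNCCNNGGNAAC, occurred in 1 of 27 genes, where 0.622% of all 13033 genes with a window and 0.507% of the 16557 windows held it. A shorter word of it, GTTGCCA, occurred in 6 genes (22.2%), where 4.89% of genes and 4.11% of windows held it, and no match of the short word overlapped an X-box match. The forkhead letters TGTTTAC occurred in 0 of 27, where 3.22% of genes and 2.67% of windows held them. Only exact matches were counted, so near matches were missed. In the Drc1 sequence and in the Dnaaf2 sequence below, the letters at the short word differ from the X-box pattern at 1 position each. The 200 bases before the RefSeq start site are given for 3 genes with a match there, 5′ to 3′ on the gene's strand, to show the matches, which are in capitals. The match of Dnah7b lies upstream of its start site too, in a stretch that other transcripts overlap.
Ccdc151, X-box, chr9:22002635-22002834, minus strand: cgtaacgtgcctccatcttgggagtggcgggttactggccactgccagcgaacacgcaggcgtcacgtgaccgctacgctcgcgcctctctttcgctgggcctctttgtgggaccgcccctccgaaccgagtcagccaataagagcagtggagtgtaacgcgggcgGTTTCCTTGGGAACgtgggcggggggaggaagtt
Drc1, short word on the opposite strand, chr5:30281193-30281392, plus strand: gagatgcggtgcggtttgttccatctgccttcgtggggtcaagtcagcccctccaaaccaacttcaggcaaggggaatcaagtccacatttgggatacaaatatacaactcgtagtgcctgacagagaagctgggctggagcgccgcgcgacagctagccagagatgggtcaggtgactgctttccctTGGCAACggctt
Dnaaf2, short word on the opposite strand, chr12:69198430-69198629, minus strand: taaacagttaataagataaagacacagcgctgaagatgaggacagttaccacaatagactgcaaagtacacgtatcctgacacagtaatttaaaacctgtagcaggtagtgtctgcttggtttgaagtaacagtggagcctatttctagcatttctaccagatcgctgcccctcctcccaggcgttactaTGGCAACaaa
Dnah10, Gas8 and Zmynd10 hold the short word after the start site. Log2 changes of the 7 genes with a match were 0.97 for Ccdc151, 1.03 for Dnah7b, 1.12 for Drc1, 1.84 for Dnah10, 0.82 for Zmynd10, 0.36 for Dnaaf2 and 0.13 for Gas8, so a match was found in genes with large and with small differences. A match is a description of the letters and not a bound site.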

How the data were processed

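Soft palate RNA of 3 mutant and 3 control libraries was measured. The submitters' processing notes name STAR and mm10 (GRCm38) without a version, and how reads were counted, and by strand or not, was not given in the sources used here. The deposited tables hold CPM values by the authors, each with 0.0001 added, as found from the values, and this constant was removed. Only 64.0 to 68.5% of values up to 20 reads came out whole (tolerance 0.02 reads), so no count model was fitted. Depth limits cover counting error only.

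Mutant was compared with control on log2(CPM + 1) by limma 3.58.1 (R 4.3.3) with a trended prior, two-sided, with Benjamini-Hochberg adjustment over 21938 genes, a threshold of 0.05 and no filter. The scale understates changes of low genes. The test was checked on simulated data. Genes were drawn there independently and with less spread than the dynein genes had in controls. That check thus does not cover differences between libraries that these genes share. No libraries were copies (highest correlation 0.988). Gene models came from GENCODE vM21 (GRCm38). All members were named; from other lists, values are given for the 3 genes of smallest p in the ciliary and dynein lists and for Foxj1, Mcidas, Ccno, Rfx2 and Rfx3, and marker genes are named as examples or for what they define. Members, lists and tests were chosen with earlier results of these data known. Alternatives are in the closing section.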

Additional observations from a re-analysis of the deposited data

How the results depend on the processing

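No paired analysis was possible because the groups share no replicate numbers. The count over the whole table, 105 genes, was 0 with a prior variance without trend, 999 at an adjusted p threshold of 0.1, and 0 to 452 with 1 library left out (452 without control replicate 2, 2 without mutant replicate 7, and 0 without any of the other 4 libraries in turn); the cause was not tested. The count of dynein genes called in limma was 0, and it was 9 at a threshold of 0.1 and 0 to 6 with 1 library left out, the 6 without control replicate 2. The 27 genes higher at an unadjusted p below 0.05 became 20 to 28 with 1 library left out, 23 without the trend, and 26 or 27 with a pseudocount of 0.1, a filter at a mean of 1 CPM or median ratio scaling. Over all genes, the share higher at that level was 13.4% with all libraries and 8.58% to 15.4% with 1 library left out. The median log2 change of 0.97 ranged from 0.64 without control replicate 3 to 1.21 without control replicate 2, and without control replicate 3 the log2 change of 15 of 33 genes moved by over 1.5 times at the same sign. Of 330 single-gene results under 10 alternatives 1 changed sign, Dnaaf5 at -0.090 without control replicate 3, where the other libraries left out gave up to 0.27, and its adjusted p was 0.818. The lowest members rest on few reads, about 6 for Dnah7a and Dnaic1 in control replicate 3.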
